A study of Arabidopsis thaliana with 6 samples.

Results

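The genes described here encode the proteins that break down glucosinolates, the sulfur-containing defence compounds of cabbage relatives. They comprised 9 loci of the 33602 in the expression table: 5 nitrile-specifier proteins (NSP1 to NSP5), the epithiospecifier protein ESP, its modifier ESM1 and the myrosinases TGG1 and TGG2. The loci were chosen as a family by locus identifier, when it was already known that NSP2 was among the largest rises in this same comparison. The members' differences are therefore given as a description without p-values. Poly(A) RNA had been sequenced from germinating Arabidopsis thaliana seeds of the Columbia accession. The wild type (WT) was Col-0. Its counterpart was scl30a-1, a mutant in the same background named after SCL30a, which encodes a serine/arginine-rich splicing factor. Seeds of both genotypes were stratified for 3 days in the cold and then held for 18 h in continuous white light at 21 ºC on MS medium. There were 3 libraries per genotype, described by the submitters as biological triplicates and named a, b and c here after the letters in the table. RNA came from whole seeds or seedlings, and 1 mutant allele was studied.

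Glucosinolates and myrosinases are kept apart in intact tissue and meet when cells are broken. Myrosinase removes glucose from the glucosinolate, and the unstable product rearranges to an isothiocyanate by default. Specifier proteins turn that product towards other compounds: NSPs towards simple nitriles, and ESP towards epithionitriles or nitriles, while ESM1 is known to favour isothiocyanates. In Arabidopsis leaves, TGG1 and TGG2 are made in myrosin cells along the veins and in guard cells. Seeds are rich in glucosinolates, and NSP2 is known as the specifier gene most associated with seeds.

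The libraries held between 70687361 and 85605647 gene counts. SCL30a itself had 6890, 7290 and 8425 counts in the WT libraries and 478, 440 and 458 in the scl30a-1 libraries, so the genotypes stood as labelled. Of 18736 genes tested with edgeR, 41.7% were called at an adjusted p under 0.05, 21.9% higher and 19.7% lower in scl30a-1, and the libraries of the genotypes did not overlap for 52.1%. The calls were 4106 higher and 3700 lower. Leaving out the composition scaling gave 3119 and 4589, and scaling by upper quartiles gave 2961 and 5258. All 5 markers of embryo storage reserves (the cruciferin genes CRA1 and CRU3, the 2S albumin gene AT2S3, the oleosin gene OLEO1 and the vacuolar aquaporin gene TIP3-1) were called higher, and their summed level was 1138 to 1442 CPM, a count scaled to the size of its library, in WT and 8883 to 10356 CPM in scl30a-1. Of 4 endosperm genes active in germination, EPR1 and MAN7 were called higher and EXPA2 and MAN5 were not called, with sums of 1614 to 1709 CPM in WT and 2289 to 2365 CPM in scl30a-1. Of the green-tissue markers, PSAD1 was called lower, RBCS1A was not called (called lower in 1 of 14 alternatives, without scl30a-1 library b, at a log2 fold change of −0.23) and LHCB2.1 had 0 to 4 counts per library. The part of these marker differences in the results on the 9 genes was not tested. In bulk RNA, a change in the number of cells of a type and a change of RNA per cell cannot be told apart.

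The specifier genes resemble each other closely enough that their coding sequences are shown first. Proteins NSP1 to NSP4 join a jacalin-like lectin part to kelch repeats, while NSP5 and ESP consist of kelch repeats alone. From the RefSeq annotation of TAIR10.1, NSP1 (470 residues) was 90.1% identical to NSP3 (467 residues), 93% to NSP4 (619 residues) and 81.3% to NSP2 (473 residues) over the aligned residues. NSP5 (326 residues) was 51.7% to 53.9% identical to each of the other 5, and ESP (341 residues) was 58.4% to 60.2% identical to NSP1 to NSP4. The 60 bases below lie near the start of the coding sequence of NSP2, around its longest unbroken match to NSP1, with the closest stretches of NSP3 and NSP4, and are shown because read counts of such genes can mix. Capitals mark bases that differ from NSP2.
NSP2: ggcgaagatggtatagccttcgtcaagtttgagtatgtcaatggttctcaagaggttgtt
NSP1: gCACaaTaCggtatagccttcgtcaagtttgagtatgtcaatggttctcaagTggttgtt
NSP3: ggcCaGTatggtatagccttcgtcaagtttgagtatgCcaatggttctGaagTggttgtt
NSP4: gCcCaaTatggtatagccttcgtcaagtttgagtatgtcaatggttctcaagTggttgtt
The NSP2 line is chr2:14030782-14030841 on the minus strand and the others lie on the plus strand of chromosome 3, at chr3:5566609-5566668 for NSP1, chr3:5562695-5562754 for NSP3 and chr3:5572840-5572899 for NSP4. NSP1 and NSP3 each differed from NSP2 at 6 bases and NSP4 at 4, and within these bases the longest unbroken match to NSP2 was 45 bases, in NSP4. NSP5 and ESP had no close counterpart of this stretch. Even so, only 0.634% of the 36-base words of the NSP2 transcript occurred in any other annotated transcript, so few NSP2 reads of that length could have come from elsewhere. For NSP1 the share was 35.4%, of which most (33.1% of all its words) was shared with NSP4, and for NSP5 it was 0%.

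NSP2 was the member that was higher in scl30a-1. The gene (AT2G33070, chr2:14028282-14031164, minus strand, 4 exons) had 1172, 1039 and 1219 counts in WT (libraries a to c) against 26933, 21944 and 18967 in scl30a-1. In CPM these were 16.4, 13.6 and 14 against 315.1, 285.4 and 244.5. Every scl30a-1 library lay far above every WT library, and library a was the highest of each genotype. The means were 14.7 ± 1.53 CPM (SD, n = 3) and 281.6 ± 35.5 CPM (SD, n = 3), a log2 fold change of 4.27 (SE 0.109) or 19.2-fold. By level, NSP2 moved from place 9765 of the 18736 genes tested in WT to place 573 in scl30a-1, and its rise was the fifth largest by log2 fold change. The embryo storage markers rose in the same libraries by 2.49 to 3.02 on the log2 scale; their part in the NSP2 difference was not tested.

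The 250 bases before the annotated start of NSP2 (chr2:14031165-14031414, minus strand, written 5′ to 3′ towards the gene) are shown because the gene moved with seed storage genes, whose promoters are known for RY and abscisic acid response elements.
NSP2 upstream: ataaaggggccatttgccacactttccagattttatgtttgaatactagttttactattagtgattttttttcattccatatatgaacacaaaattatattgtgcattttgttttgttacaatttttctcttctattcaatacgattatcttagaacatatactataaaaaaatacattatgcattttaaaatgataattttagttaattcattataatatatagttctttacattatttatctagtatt
No match to the G-box CACGTG, the abscisic acid response element ACGTGGC or the RY element CATGCA was found in this window on either strand, and the window therefore carries no capitals. Over 27443 windows of that length before annotated genes, 6.49% held the G-box, 3.37% the response element and 8.43% the RY element. Among the 9 members, a single match was found, the response element 153 bases before the start of NSP3.

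NSP1 and NSP5 were lower in scl30a-1. NSP1 (AT3G16400, chr3:5566083-5568545, plus strand), the main nitrile-forming specifier of Arabidopsis leaves, had 2958, 3650 and 3109 counts in WT and 1952, 2265 and 1824 in scl30a-1. Its levels were 41.4, 47.6 and 35.8 CPM against 22.8, 29.5 and 23.5 CPM, without overlap and with library b highest in both genotypes. The scl30a-1 mean was 60.8% of the WT mean (41.6 ± 5.94 CPM against 25.3 ± 3.64 CPM, SD, n = 3 each; log2 fold change −0.72, SE 0.115).

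NSP5 (AT5G48180, chr5:19540937-19542760, minus strand), like ESP a kelch-only member, had 7726, 8475 and 8336 counts in WT and 6444, 6417 and 6319 in scl30a-1. In CPM, WT gave 108.1, 110.6 and 95.9 and scl30a-1 gave 75.4, 83.5 and 81.5. The lowest WT library stayed above the highest scl30a-1 library. The mean went from 104.9 ± 7.87 to 80.1 ± 4.2 CPM (SD, n = 3 each), 76.4% of WT and a log2 fold change of −0.39 (SE 0.0638).

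The other specifier genes were at or near 0 in every library. NSP4 (AT3G16410, chr3:5571903-5574758, plus strand) had 8, 8 and 8 counts in WT and 6, 6 and 0 in scl30a-1, while 26.7% of its 36-base words occur in other transcripts, mostly in that of NSP1. NSP3 (AT3G16390, chr3:5562400-5564574, plus strand) had 1 count in WT library b and 0 elsewhere. ESP (AT1G54040, chr1:20170715-20173949, minus strand) had 0 counts in all 6 libraries, a depth at which 3 counts would correspond to between 0.035 and 0.0424 CPM. The Columbia accession is known for very low ESP activity. These genes were too low to be tested.

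**Figure D1:**
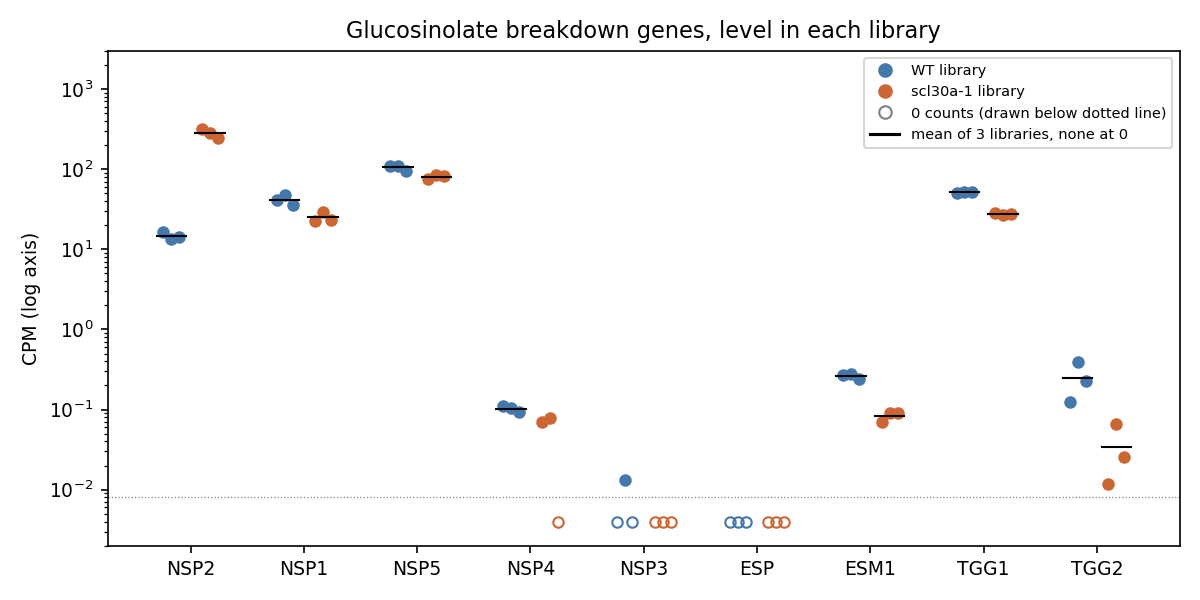
Level of each member in each library in CPM (vertical axis, log scale), with 1 point per library, a bar at the mean of 3 libraries where none is at 0, and open points below the dotted line for libraries with 0 counts. NSP2 stands at 13.6 to 16.4 CPM in WT and 244.5 to 315.1 CPM in scl30a-1, while the scl30a-1 libraries of NSP1, NSP5, ESM1, TGG1 and TGG2 all lie below the WT libraries.

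To set genes against each other, counts were divided by the length of the RefSeq transcript and by the library total, giving CPM per kb. Unlike the CPM values above, this scale has no composition scaling. In WT the order of levels on this scale was NSP5 at 61.6 ± 3.91, TGG1 at 27.5 ± 0.593, NSP1 at 21.7 ± 2.86 and NSP2 at 7.14 ± 0.724 (SD, n = 3), and the libraries of these neighbours did not overlap. In scl30a-1 it was NSP2 at 132.9 ± 17.1, NSP5 at 45.5 ± 1.79, TGG1 at 14.3 ± 0.627 and NSP1 at 12.7 ± 1.5 (SD, n = 3), where TGG1 and NSP1 overlapped and the others did not. The order of TGG1 and NSP1 depends on the length used. With transcript parts that occur elsewhere left out of the length, and all counts kept, NSP1 stood above TGG1 in every library. The values were 33.5 ± 4.43 against 27.8 ± 0.6 CPM per kb in WT and 19.7 ± 2.32 against 14.5 ± 0.633 in scl30a-1 (SD, n = 3). How reads from such parts were counted is not known here, so the order of these genes stays undecided. On both lengths, NSP2 stood below the other 3 genes in WT and above them in scl30a-1. ESM1, TGG2 and NSP4 stayed below 0.25 on this scale in every library. In WT, ESM1 and TGG2 (0.136 ± 0.00722 and 0.129 ± 0.0683, SD, n = 3) did not differ beyond their spread. In scl30a-1, ESM1 stood above TGG2 without overlap (0.0422 ± 0.00549 and 0.0169 ± 0.0133, SD, n = 3), but both had 7 counts or fewer per library.

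The share of NSP2 in the summed level of the 6 specifier genes was 8.58%, 6.85% and 8.35% in the WT libraries and 73.2%, 68.3% and 66.5% in the scl30a-1 libraries. NSP5 therefore made up most of the specifier transcripts in each WT library, and NSP2 in each scl30a-1 library. The NSP1 share went from 23.9% ± 1.61 to 6.68% ± 0.944, and the NSP5 share from 68.1% ± 0.737 to 24% ± 2.79 (SD, n = 3). The summed level was 90.5 ± 6.61 CPM per kb in WT and 191.1 ± 15.1 CPM per kb in scl30a-1 (SD, n = 3), 2.11 times as high. Without NSP2 the sum was 83.3 ± 6.63 against 58.3 ± 2.73, 0.7 times as high. Both ratios between genotypes rest on library totals without composition scaling. Shares between genes depend on the length used. When the part of each transcript that occurs elsewhere was left out of the length, with all counts kept, the NSP2 share was 7.05% in WT and 67% in scl30a-1. The NSP1 share was then 32.7% and 9.93%, and the NSP5 share 60.2% and 23%.

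**Figure D2:**
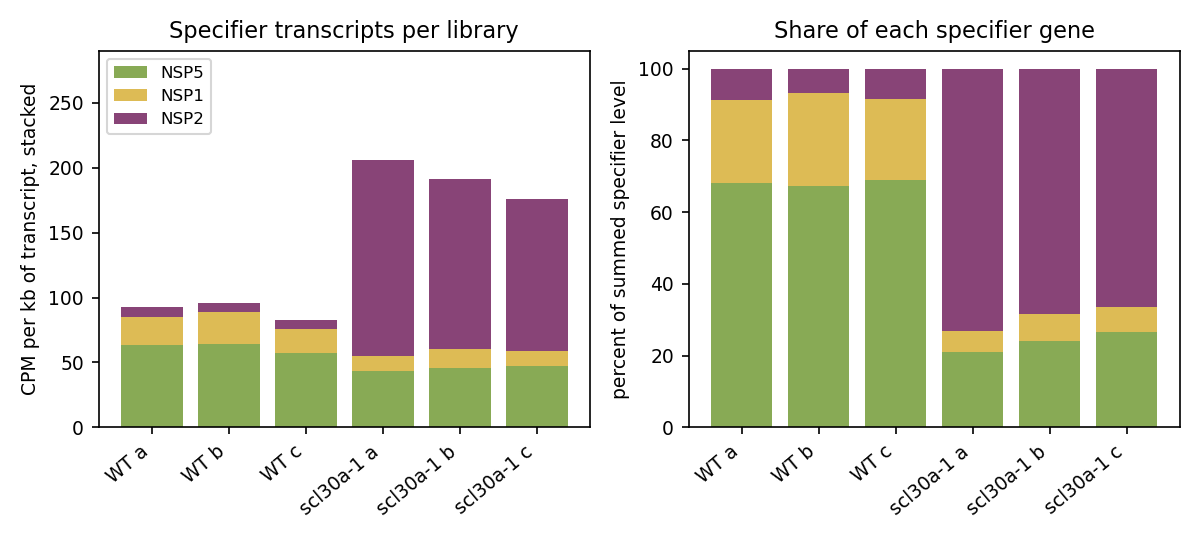
Stacked bars for the 6 libraries of NSP5, NSP1 and NSP2, on the left as CPM per kb of transcript and on the right as percent of the summed level of the 6 specifier genes; NSP3 and NSP4 are too small to be seen and ESP is at 0. NSP5 makes up 67.4% to 68.8% of the WT bars and NSP2 66.5% to 73.2% of the scl30a-1 bars.

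ESM1 (AT3G14210, chr3:4729399-4731847, plus strand), a GDSL-type protein, was barely detected. It had 19, 21 and 21 counts in WT and 6, 7 and 7 in scl30a-1, or 0.261 ± 0.0169 against 0.0838 ± 0.0118 CPM (SD, n = 3 each). The groups did not overlap, with a log2 fold change of −1.62 (SE 0.291).

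Of the myrosinases, TGG1 was the one with appreciable reads. TGG1 (AT5G26000, chr5:9079452-9082384, minus strand, 12 exons) had 3595, 3944 and 4479 counts in WT and 2396, 2068 and 2130 in scl30a-1. In CPM, WT stood at 50.3, 51.5 and 51.5 and scl30a-1 at 28, 26.9 and 27.5. The libraries within a genotype lay close together, and the scl30a-1 mean was 53.8% of the WT mean (51.1 ± 0.684 against 27.5 ± 0.568 CPM, SD, n = 3 each; log2 fold change −0.90, SE 0.0431). Per kilobase, the summed specifier level was 3.29 ± 0.295 times that of TGG1 in WT and 13.4 ± 1.07 times in scl30a-1 (SD, n = 3).

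TGG2 (AT5G25980, chr5:9072708-9075777, plus strand, 12 exons) ends 3.67 kb from TGG1 on the same chromosome and lies in the opposite orientation. It had 9, 30 and 20 counts in WT and 1, 5 and 2 in scl30a-1, or 0.249 ± 0.134 against 0.0342 ± 0.0276 CPM (SD, n = 3 each). The highest scl30a-1 count stayed under the lowest WT count, and the log2 fold change was −2.85 (SE 0.621). That size rests on few reads: it was −3.66 without scl30a-1 library b and −2.40 without WT library b, and without WT library c the gene was too low to be tested. TGG1 made up 99.5% of the summed TGG1 and TGG2 level per kilobase in WT and 99.9% in scl30a-1.

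The proteins TGG1 (541 residues) and TGG2 (547 residues) were 73.2% identical, and 1.08% and 1.04% of the 36-base words of their transcripts occurred elsewhere. Their upstream windows are shown because TGG1 stood 213.7 times as high as TGG2 per kilobase in WT while the windows share stretches near the start. Capitals mark runs of at least 12 bases that occur in both windows of 250 bases.
TGG1 upstream: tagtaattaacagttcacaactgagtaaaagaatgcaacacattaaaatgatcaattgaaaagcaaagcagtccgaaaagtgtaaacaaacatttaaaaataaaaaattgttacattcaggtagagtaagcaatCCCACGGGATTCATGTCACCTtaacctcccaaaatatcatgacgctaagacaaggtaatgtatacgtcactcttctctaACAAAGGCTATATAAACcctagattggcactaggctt
TGG2 upstream: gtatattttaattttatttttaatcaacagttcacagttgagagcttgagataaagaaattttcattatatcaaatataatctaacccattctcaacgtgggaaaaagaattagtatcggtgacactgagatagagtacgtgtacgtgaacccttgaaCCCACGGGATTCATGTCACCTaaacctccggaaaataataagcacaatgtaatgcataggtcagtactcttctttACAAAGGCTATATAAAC
TGG1 upstream is chr5:9082385-9082634 on the minus strand and TGG2 upstream is chr5:9072458-9072707 on the plus strand. There were 2 shared runs, the longer of 21 bases, and together they covered 38 bases of each window. The second run holds the letters TATAAA. FAMA, the transcription factor needed for guard cells and myrosin cells, had 63, 66 and 74 counts in WT and 51, 36 and 41 in scl30a-1 (log2 fold change −0.70, SE 0.156, edgeR adjusted p = 0.0054). Its part in the TGG1 and TGG2 differences was not tested.

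In all, 6 of the 9 members could be tested and all 6 were called, 1 higher and 5 lower, against 41.7% of all genes tested, and the libraries of all 6 were without overlap, against 52.1%. Nothing is read from that count, because the members were chosen on this comparison and because ESM1 and TGG2 passed the filter on low counts through the WT libraries alone.

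Of the 8 genes in a row with NSP1 on chromosome 3, 4 could be tested, and these 4 were lower in scl30a-1, as NSP1 was. NSP3, NSP1 and NSP4 stand in a row with 6 jacalin-lectin genes, JAL30 to JAL35, over 36.8 kb. JAL30 encodes a protein that binds the beta-glucosidase PYK10. The 4 tested genes were all jacalin genes and all called lower, a call made for 19.7% of all genes tested: JAL31 by a log2 fold change of −1.04 (SE 0.16, edgeR adjusted p = 0.000595), JAL33 by −1.01 (SE 0.166, adjusted p = 0.000918), JAL34 by −0.87 (SE 0.114, adjusted p = 0.000226) and JAL30 by −0.44 (SE 0.107, adjusted p = 0.00816). JAL34 overlaps JAL35 on the opposite strand, and 22.3% of its words are found in other transcripts. JAL32 and JAL35 were too low to be tested. NSP1 and the 4 jacalin genes all had their highest level in library b of both genotypes, which held for 17.5% of all genes tested. This is not particular to the row. The beta-glucosidase gene PYK10, the indole synthesis gene CYP83B1 and the green-tissue marker RBCS1A, which lie elsewhere, also peaked there, while other listed genes did not.

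ESP lies at the end of a row of GDSL-type genes on chromosome 1, GLL22, GLL23, GLL25 and MVP1, over 19.8 kb. While ESP had no reads, GLL22 was called lower with a log2 fold change of −0.64 (SE 0.0629, edgeR adjusted p = 3.22e-05). GLL25 (−0.37, SE 0.103, adjusted p = 0.0171) and GLL23 (−0.32, SE 0.0917, adjusted p = 0.0181) were called lower too, but each call was lost without WT library b (and without scl30a-1 library a). MVP1 stood at 286.1 ± 8.34 against 262.2 ± 8.73 CPM (SD, n = 3) and was not called, though it was called lower in 4 of 14 alternatives. In CPM these 4 genes also peaked in library b of both genotypes, MVP1 only narrowly in scl30a-1 (267.8 against 266.7 CPM in library c). On unscaled library totals, scl30a-1 library c was the highest for MVP1 (164.1 against 158 CPM per kb in library b). The myrosinase-binding protein genes MBP1 and MBP2 had 0 counts in every library.

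**Figure D3:**
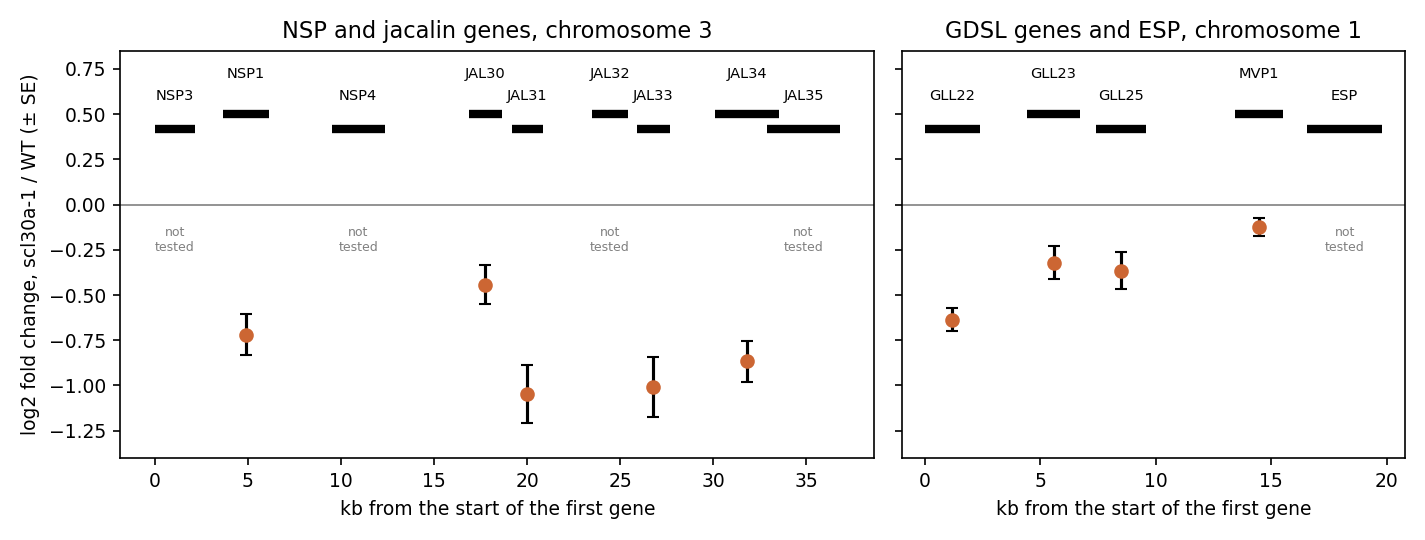
Log2 fold change of scl30a-1 against WT (vertical axis, with standard error bars) along the gene rows around NSP1 and ESP; the horizontal axis is the distance in kilobases from the first gene's start, black bars at the top mark the genes' extents, and genes too low to be tested are marked as such. NSP1 and the 4 tested jacalin genes lie between −1.04 and −0.44, and the 4 tested GDSL genes between −0.64 and −0.13.

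The remaining glucosinolate genes, 74 in all, were called in both directions. Of these, 14 had 0 counts in every library, 10 more had at most 13 counts in any library, and 50 were tested. Of the 50, 11 (22%) were called higher, 19 (38%) lower and 20 not, against 21.9% higher and 19.7% lower over all genes tested. The 50 had a median log2 fold change of −0.0973 against 0.0027 over all genes tested. The 19 called lower include the 4 tested jacalin genes, listed as neighbours of NSP1, and 3 of the 4 tested GDSL genes beside ESP. The lower calls are therefore not spread evenly over the pathway. The number called higher was 7 with upper-quartile scaling, and the number called lower was 12 without WT library b. The list was drawn up with earlier results of these data known.

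Among 8 other genes of myrosinases or related beta-glucosidases, 4 were tested. BGLU28 and BGLU30, beta-glucosidases tied to glucosinolate breakdown under sulfur shortage, went opposite ways, with log2 fold changes of −1.41 (SE 0.0868) for BGLU28 and 0.83 (SE 0.0982) for BGLU30 at edgeR adjusted p-values of 9.72e-07 and 0.000108. PYK10, the main beta-glucosidase of endoplasmic reticulum bodies, fell from 1187 ± 134.9 to 831.4 ± 72.7 CPM (SD, n = 3; log2 fold change −0.51, adjusted p = 0.00137), though it overlaps a neighbouring gene. PEN2, which acts on indole glucosinolates in leaf defence, was at 1.04 ± 0.134 and 1.08 ± 0.145 CPM and was not called. TGG4, TGG5 and TGG6 had 0 counts in every library.

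Some nitrilases act on nitriles that specifier proteins help to form. NIT2 had 673, 630 and 659 counts in WT and 2822, 2772 and 2142 in scl30a-1, with all mutant libraries above all WT libraries. Its mean rose from 8.41 ± 0.933 to 32.2 ± 4.28 CPM (SD, n = 3; log2 fold change 1.94, SE 0.106, edgeR adjusted p = 4.03e-07). NIT1, NIT3 and NIT4 were not called, with log2 fold changes of 0.07, −0.05 and −0.12. Per kilobase, the NIT2 share of summed NIT1, NIT2 and NIT3 was 5.02% ± 0.336 in WT and 16.2% ± 1.15 in scl30a-1 (SD, n = 3), and 10.3% of the 36-base words of NIT2 are shared, with NIT1.

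The glucosinolate transporters, which load seeds, moved in opposite directions. GTR1 was higher, with a log2 fold change of 0.36 (edgeR SE 0.0547, adjusted p = 0.000582), and GTR2 lower (−0.32, SE 0.0496, adjusted p = 0.000622), and GTR3 was too low to be tested. Both GTR1 and GTR2 overlap other annotated genes, and 14.1% of the words of GTR1 occur in other transcripts. Of 24 genes for aliphatic glucosinolates, 13 were tested, with 4 called higher and 1 lower, or 38.5% called against 41.7% of all genes tested. AOP3, a side-chain dioxygenase, rose by a log2 fold change of 1.06 (SE 0.143, adjusted p = 0.000274). IPMI_SSU2, an isopropylmalate isomerase subunit of side-chain elongation, rose by 1.07 (SE 0.137, adjusted p = 0.000177) from 0.731 to 1.54 CPM. FMO_GSOX5, an S-oxygenase, rose by 0.47 (adjusted p = 0.000164), with 24.6% of its words shared with other transcripts. IPMI_LSU1 was the fourth called higher (0.19), and FMO_GSOX3 the 1 called lower (−1.20, at 0.224 and 0.0955 CPM); both were picked out after their values were seen, and their calls were lost in 3 and 2 of 14 alternatives, among them those without WT library a. Like ESM1 and TGG2, FMO_GSOX3 passed the filter on low counts through the WT libraries alone. Of the 24 aliphatic genes, 6 had 0 counts in every library: BAT5, MAM3, CYP79F1, CYP79F2, FMO_GSOX2 and AOP2.

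All 13 genes of indole glucosinolate and shared core synthesis were tested, with 2 called higher and 6 lower, or 61.5% called against 41.7% of all genes tested. By edgeR log2 fold change, the 3 largest falls were those of CYP81F4 (−0.74, SE 0.135, adjusted p = 0.00172) and CYP81F2 (−0.39, SE 0.0453, adjusted p = 9.56e-05), which modify the indole ring, and CYP79B3 (−0.57, SE 0.131, adjusted p = 0.00634), which starts the pathway from tryptophan. CYP81F1 (0.20, adjusted p = 0.00636) and GGP1 (0.16, adjusted p = 0.034) were the 2 called higher, and the GGP1 call was lost in 6 of 14 alternatives. CYP81F1 and CYP81F4 share 96.4% and 86% of their words with an annotated overlapping locus each, so their counts are uncertain. Of 10 regulators, MYB28, MYB29 and MYB76, the activators of aliphatic synthesis, had 0 counts in every library. The indole activators MYB34 (0.20, adjusted p = 0.0486) and MYB51 (−0.39, adjusted p = 0.0237) and the bHLH partners MYC3 (0.14, adjusted p = 0.0302) and MYC4 (−0.13, adjusted p = 0.0319) were called, and each call was lost in 4 to 8 of 14 alternatives.

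**Figure D4:**
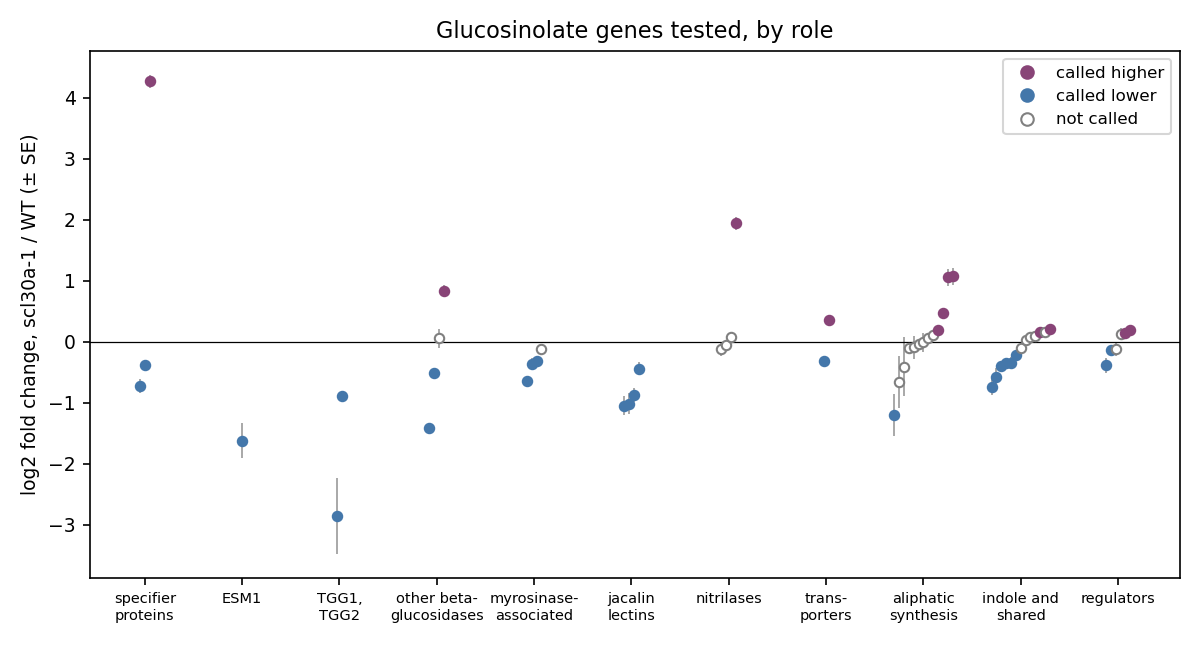
Log2 fold change of scl30a-1 against WT for every tested gene of the members and the 8 other glucosinolate lists (one column per list, vertical axis with SE bars), coloured by call. NSP2 at 4.27 and NIT2 at 1.94 stand above all other points, and the 4 jacalin genes all lie below 0.

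The genes whose pattern over the 6 libraries was nearest to that of NSP2 were sought by the root mean square distance between log2 CPM values, each centred on its gene's own mean, among the 16860 tested genes that averaged 50 counts or more per library. The nearest was BGLU19 (AT3G21370), a beta-glucosidase, at 0.0689. Then came AT2G43590, annotated as a chitinase family protein (0.137), the seed storage albumin gene SESA1 (0.165), AT3G21380, annotated as a mannose-binding lectin superfamily protein (0.177), and the uncharacterised AT5G35935 (0.21). Their log2 fold changes lay between 3.91 and 4.64. AT3G21380 went from 28.8 ± 2.88 to 433.2 ± 47.7 CPM (SD, n = 3) and SESA1 from 9.94 ± 2.24 to 179.3 ± 21.5 CPM (SD, n = 3). Since the distance follows the difference between genotypes, this is a description of likeness over 6 libraries and no more.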

How the data were processed

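Poly(A) RNA-seq of 3 WT and 3 scl30a-1 libraries was used. The authors deposited 1 table with raw read counts per gene and library, per the file headers; only these were used. Another 6 columns hold length-normalised values; they were left out because the letters cannot be matched to single samples and the counts already take each sample once. This departs from the plan to take within-library ratios from those columns, so levels per kilobase were computed from the counts and RefSeq transcript lengths. The build was TAIR10, per the submitters' processing notes; the aligner, its settings and whether counting used strand are not given in the sources used here. Columns carry letters, not the labels' replicate numbers, so libraries were assigned by genotype.

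Counts were analysed with edgeR 4.0.16 in R 4.3.3 (TMM scaling, filterByExpr with a minimum count of 10, quasi-likelihood F test of genotype), which kept 18736 genes and removed 13653. P-values were Benjamini-Hochberg adjusted over all genes tested, and a gene was called under 0.05. CPM values use TMM-scaled library sizes, while values in CPM per kb use unscaled library totals. The SE of a log2 fold change was taken from the fitted coefficient and its F value. Where a level rests on few counts, 3 counts were used as the floor, which covers counting error only. Alternatives were other scalings, filters and tools (DESeq2 1.42.0 and limma 3.58.1 with voom), and each library left out. With 3 against 3 libraries, a permutation test of a single value cannot go below 0.1 (two-sided), so none was used. Nothing in the labels says which libraries shared a day or batch.

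The members and gene lists were chosen with earlier results of these data known. All members are named; of each other list, at most the 3 called genes with the largest rise and the 3 with the largest fall (mean of at least 50 counts). Coordinates, transcript lengths and sequences come from RefSeq TAIR10.1, in which all 97 listed loci were found; protein identities were computed from its coding sequences.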

Additional observations from a re-analysis of the deposited data

How the results depend on the processing

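The calls and directions of NSP1, NSP2, NSP5, ESM1 and TGG1 held in all 14 alternatives and those of TGG2 in the 13 in which it could be tested. This describes the processing only, because the members were chosen on this comparison. ESM1 and TGG2 also passed the filter on low counts through the WT libraries alone. Log2 fold changes ranged from 4.18 to 4.35 for NSP2, −0.84 to −0.61 for NSP1, −0.46 to −0.35 for NSP5, −0.96 to −0.88 for TGG1, −1.69 to −1.50 for ESM1 and −3.66 to −2.40 for TGG2. No gene that is named as called changed sign in these alternatives. Of those not called, RBCS1A became called lower without scl30a-1 library b. MVP1 stayed uncalled in 10 of 14 alternatives and was called lower in the others. PEN2 turned to −0.0131 with upper-quartile scaling, and PEN2, NIT1 and MAN5 changed sign, uncalled, with 1 library left out (−0.0668 to 0.149, −0.0094 to 0.113 and −0.047 to 0.0472). Of the 50 tested pathway genes, 11 were called higher (7 with upper-quartile scaling, 8 to 10 with 1 library left out) and 19 lower (12 to 20 with 1 library left out, the lowest without WT library b). Leaving transcript parts that occur elsewhere out of the length, with all counts kept, was an alternative chosen after seeing the data. It gave an NSP2 share of the specifier level of 7.05% in WT and 67% in scl30a-1, within the spread of the libraries. It moved other values beyond that spread. In WT, the NSP5 share moved to 60.2%, the NSP1 share to 32.7% and the summed specifier level to 102.4 CPM per kb. The ratio of that level to TGG1 moved to 3.69 in WT. The sum without NSP2 moved to 95.2 CPM per kb in WT and 65.25 in scl30a-1, and the scl30a-1 NSP1 share to 9.93%. This length also placed NSP1 above TGG1. The planned fit with limma on the deposited length-normalised values was not run, since those columns were not used. Genes called numbered 7806, and 5825 to 8075 with 1 library left out. The column letters pair nothing in the labels, and same-letter libraries did not deviate together throughout (correlations −0.0772, 0.238 and 0.247). With the letter as a replicate block, 8940 genes were called and no member's call changed. Depth limits NSP3, NSP4, ESP, ESM1 and TGG2, each at 30 counts or fewer in every library.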
